A study of Homo sapiens with 6 samples.

Results

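The polyamine synthesis and turnover genes are 10 genes chosen by name, and all 10 were among the 13271 rows of the deposited table. They were grouped by role into synthesis (ODC1, AMD1, SRM and SMS), antizyme control (OAZ1, OAZ2 and AZIN1) and catabolism (SAT1, SMOX and PAOX). RNA was measured in 5637, an established human bladder cancer cell line, in 3 libraries transfected with a plasmid carrying MAT1A and 3 transfected with an empty vector (control). Both groups were grown in DMEM/F-12 with serum, received Lipofectamine 3000 in 24-well plates when 50% confluent, and were lysed 48 h later. Transfection was transient and each library pools all cells of a sample, so fewer cells of a type and less RNA per cell cannot be told apart. No label states that the 3 replicates of a group came from different cultures, and the p-values therefore cover the spread between libraries alone, which could be technical.

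Polyamines (putrescine, spermidine and spermine) are small cations that bind nucleic acids and are needed for growth. Ornithine decarboxylase makes putrescine, and spermidine and spermine synthases lengthen it with aminopropyl groups taken from decarboxylated S-adenosylmethionine (SAM), which AMD1 makes. MAT1A encodes the liver form of the enzyme that makes SAM, the substrate of AMD1. SAM and the MAT1A protein were not measured in these data. Much of the control of this pathway acts on translation and on protein stability, which RNA levels do not show: antizymes carry ornithine decarboxylase to the proteasome, and antizyme inhibitors hold antizymes back.

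The promoters of the 3 synthesis genes that passed the test below are shown because 2 of them fell and 1 rose. They are RefSeq windows on GRCh38.p14 of 250 bases before to 50 after a gene's start, so that the start is base 251 of 300. They lie at chr2:10448278-10448577 on the minus strand for ODC1, chr6:110874535-110874834 on the plus strand for AMD1 and chr1:11059969-11060268 on the minus strand for SRM. Capitals mark TATAA (searched on both strands), CACGTG (an E-box, its own reverse complement, to which MYC-family factors can bind) and, in AMD1, the first ATG after the start with its reading frame to the stop.
ODC1: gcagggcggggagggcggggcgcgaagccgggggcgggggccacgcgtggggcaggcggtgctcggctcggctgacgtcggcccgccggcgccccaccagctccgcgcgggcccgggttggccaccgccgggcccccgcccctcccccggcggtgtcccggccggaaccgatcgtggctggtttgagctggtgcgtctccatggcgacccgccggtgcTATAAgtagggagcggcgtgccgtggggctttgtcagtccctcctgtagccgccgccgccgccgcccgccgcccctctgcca
AMD1: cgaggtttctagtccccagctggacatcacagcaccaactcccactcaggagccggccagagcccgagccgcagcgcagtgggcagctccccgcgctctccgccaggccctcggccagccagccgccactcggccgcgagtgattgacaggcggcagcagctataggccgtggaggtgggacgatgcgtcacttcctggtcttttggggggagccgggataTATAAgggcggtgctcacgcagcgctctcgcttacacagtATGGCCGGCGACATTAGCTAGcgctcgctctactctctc
SRM: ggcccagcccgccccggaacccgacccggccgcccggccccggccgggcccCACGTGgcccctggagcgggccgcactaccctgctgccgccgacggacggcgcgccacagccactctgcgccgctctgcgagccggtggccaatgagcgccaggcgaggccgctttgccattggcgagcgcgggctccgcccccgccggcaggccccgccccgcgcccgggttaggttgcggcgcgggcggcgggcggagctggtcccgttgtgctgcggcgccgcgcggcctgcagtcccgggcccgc

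TATAA began 32 bases before the start in ODC1 and 29 bases before it in AMD1, and neither window held CACGTG. The SRM window held CACGTG at 199 bases before the start, without TATAA. Of all 35116 RefSeq windows of this length, 20.4% held TATAA and 7.26% held CACGTG. A second ODC1 window, for a start downstream, held 2 copies of CACGTG, at its bases 222 and 256, and no TATAA. The tables matched 7 of the 10 genes with 10 windows (2 for ODC1, 3 for AMD1), of which 2 held CACGTG and 4 TATAA. AMD1 windows 1 and 3 cover almost the same bases and hold the same TATAA, and that of OAZ1 begins at base 257, after the start. AZIN1, SMOX and PAOX had no window. The capital reading frame of AMD1 begins at base 262 and spans 21 bases, 6 sense codons and a stop. This upstream reading frame is known to stall ribosomes when polyamines are plentiful, and so limits translation of AMD1. The motifs were chosen after the values were seen, and a match describes letters only.

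MAT1A itself stood at 1805, 1834 and 1917 in MAT1A libraries 1, 2 and 3, against 1.09, 0.253 and 4.54 in control libraries 1, 2 and 3, as the labels require. Values are given in the unit of the deposited table, reads on a scale close to CPM, and the libraries held between 17.4 and 21.6 M reads. Of 13 urothelial and epithelial markers 12 were listed. Keratins other than KRT14 were high (KRT5 between 1857 and 2033 in MAT1A libraries and between 1476 and 1572 in control libraries). KRT14 was 27.0 to 30.7 in MAT1A libraries and 21.1 to 23.2 in control libraries. CDH1 was 213 to 223 in MAT1A libraries and 193 to 195 in control libraries. All listed keratins and CDH1 were higher in each MAT1A library than in each control library, against 14.7% of all genes tested. The 12 markers summed to 10105 to 10999 in MAT1A libraries and 9014 to 9316 in control libraries. GATA3 was lower in MAT1A libraries (37.6 to 39.8) than in control libraries (46.0 to 47.0), and EPCAM and TP63 overlapped between the groups. The uroplakin gene UPK2 was near 1 or below in each library and UPK3A was not listed. Of 15 skeletal muscle markers 14 were listed, and their summed value was 46.4 to 97.0 in MAT1A libraries against 99.3 to 492 in control libraries, highest in control 1. None of these 14 was at 0. Of 7 blood markers only HBB and LYZ were listed, summing to 5.92 to 28.3 in MAT1A libraries and 27.0 to 53.8 in control libraries, and of 8 fibroblast and endothelial markers 4, summing to 122 to 129.5 in MAT1A libraries and 143 to 260.2 in control libraries. Of those 4, only COL1A1 did not overlap between the groups (91.1 to 96.6 in MAT1A, 112 to 171 in control).

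Changes in the polyamine genes were small, and those called lay in synthesis and in 1 enzyme of catabolism. AMD1, ODC1 and SMOX fell in MAT1A libraries, SRM rose, and the other 6 were not called. A gene was called at a Benjamini-Hochberg adjusted p under 0.05 in limma on log2(value + 1), and 11.4% of the 12866 genes tested were called (7.4% lower, 4.01% higher). Of these calls 35.1% were higher, against 58.0% once a trend on exon length and GC content was removed from each library (which put the median log2 change of all genes at 0.023) and 42.0% with the medians then set back. Thus 4 of 10 members were called, 3 lower and 1 higher, with log2 changes between -0.22 and 0.15. The MAT1A and control libraries did not overlap for 6 of the 10, against 30.3% of all genes tested. The median log2 change was -0.042 over the 10 members and 0.0040 over all genes tested. The muscle marker level did not overlap between the groups, so a fit that holds it as a covariate (the mean log2 value of the 14 genes) separates it from the transfection only through the spread within groups. With that muscle covariate none of the 10 was called, against 3.15% of all genes (limma adjusted p between 0.0784 and 0.327 for the 4), although the log2 changes of these 4 kept their sign. The log2 change was larger for ODC1 (-0.16), nearly the same for SRM (0.15) and SMOX (-0.21), and smaller for AMD1 (-0.11). With the covariate the SE was 0.045 for ODC1, 0.047 for AMD1, 0.070 for SRM and 0.083 for SMOX. In the reported fit it was 0.031, 0.032, 0.046 and 0.054 in that order. Without control 3, and with no covariate, 1 of the 10 was called (5.87% of all genes), and 2 were called without control 1 (6.14%) or control 2 (8.54%). With the replicate number as a block, 6 were called, against 18.0% of all genes.

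**Figure D1:**
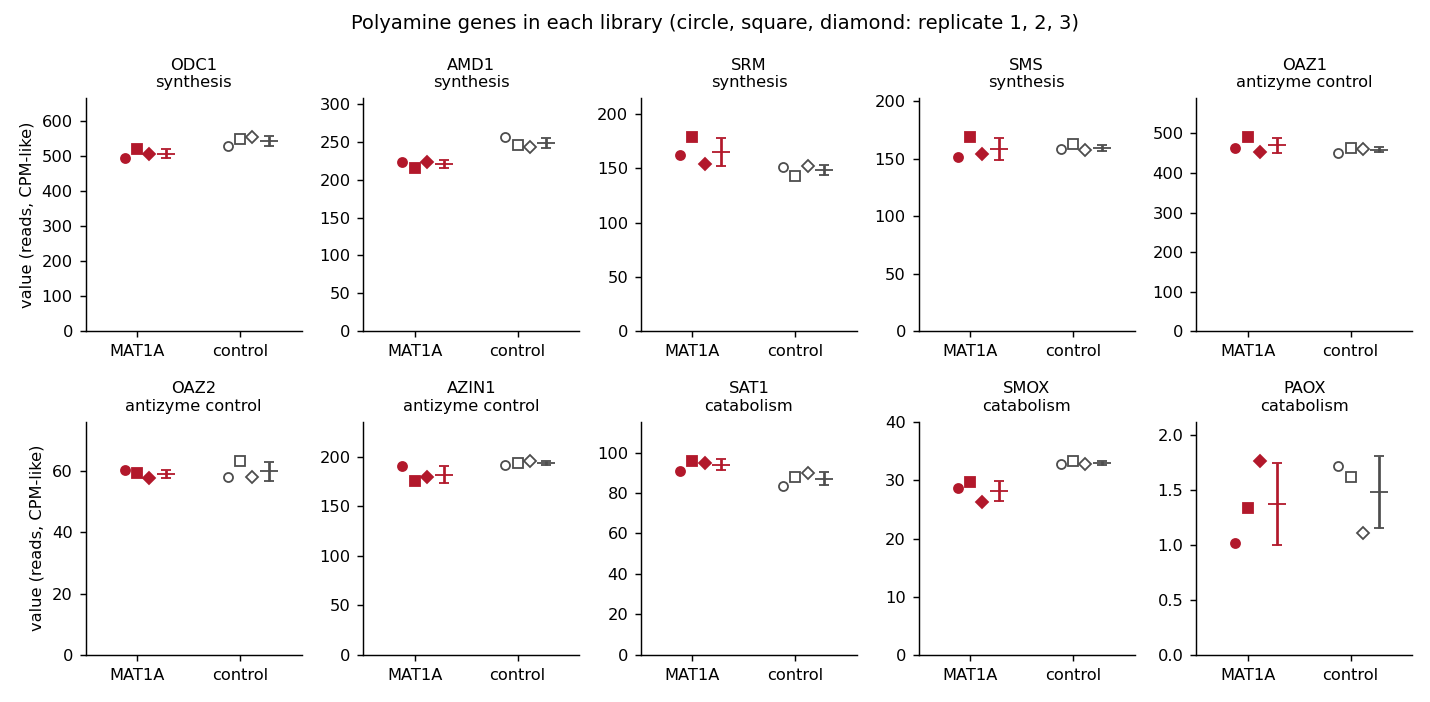
Value of each polyamine gene in the CPM-like unit of the table (linear y axes from 0), with 1 point per library, MAT1A filled and control open, and mean ± SD over 3 libraries beside the points. AMD1 sits between 215 and 224 in MAT1A libraries against 243 to 257 in control libraries, while PAOX stays below 2 and overlaps.

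AMD1, the SAM decarboxylase gene on chromosome 6 (110874770 to 110895713, plus strand, GRCh38), had the smallest p of the 10. It was 223.9, 215.3 and 223.5 in MAT1A libraries 1, 2 and 3, against 256.6, 245.4 and 243.1 in control libraries 1, 2 and 3. Every MAT1A library lay below every control library. AMD1 averaged 220.9 ± 4.87 in MAT1A and 248.4 ± 7.20 in control libraries (SD, n = 3 each), a fall by 11.1% in the mean and a log2 change of -0.17 ± 0.032 (SE; adjusted p = 0.00260 in limma). AMD1 stayed called with any single library left out (adjusted p up to 0.0282). With the length and GC trend removed the log2 change was -0.097, still called (adjusted p = 0.0203), and with the muscle covariate it was -0.11 and not called (adjusted p = 0.266). The annotation holds 4 pseudogenes of AMD1 and 2 of SRM, none of them listed in the table, and whether their reads reached these genes was not tested.

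ODC1, whose enzyme makes putrescine and starts the pathway, lies on chromosome 2 (10439968 to 10448504, minus strand). Its values were 495.2, 519.7 and 507.0 in MAT1A libraries 1, 2 and 3, and 528.2, 548.6 and 555.0 in control libraries 1, 2 and 3. The groups did not overlap, with MAT1A 2 and control 1 closest to each other. ODC1 averaged 507.3 ± 12.3 in MAT1A and 543.9 ± 14.0 in control libraries (SD, n = 3 each), a log2 change of -0.10 ± 0.031 (SE; adjusted p = 0.0453 in limma). It stayed called without MAT1A 2 (adjusted p = 0.0106) and lost its call without any other single library (adjusted p up to 0.211). Its log2 change was -0.16 with the muscle covariate (adjusted p = 0.0784).

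SRM encodes spermidine synthase, which turns putrescine into spermidine, and lies on chromosome 1 (11054584 to 11060024, minus strand). It was 162.2, 179.2 and 154.4 in MAT1A libraries 1, 2 and 3, against 151.1, 143.4 and 152.1 in control libraries 1, 2 and 3. The lowest MAT1A library, number 3, was barely above control 3, and MAT1A 2 was the highest. The means were 165.3 ± 12.7 in MAT1A and 148.8 ± 4.77 in control libraries (SD, n = 3 each), a log2 change of 0.15 ± 0.046 (SE; adjusted p = 0.0457 in limma). Without MAT1A 2 the log2 change was 0.088 and not called (adjusted p = 0.129), and the call also ended without any other library but MAT1A 3 (adjusted p up to 0.164). Scaling by library size without MAT1A reads ended it too (log2 change 0.14, adjusted p = 0.0612).

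SMS, the spermine synthase gene on the X chromosome (21940573 to 21994835, plus strand), was not called. It was 151.5, 169.0 and 153.8 in MAT1A libraries 1, 2 and 3 and 158.8, 162.4 and 157.5 in control libraries 1, 2 and 3, so the groups overlapped. Its log2 change was -0.015, with a 95% confidence interval from -0.098 to 0.069 (limma adjusted p = 0.855). Number 2 was the highest library of each group.

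The antizyme control genes were not called. OAZ1 encodes the main antizyme, which binds ornithine decarboxylase, and its protein is made through a frameshift that polyamines promote. It lies on chromosome 19 (2269509 to 2273490, plus strand) and was 463.5, 491.3 and 454.0 in MAT1A libraries 1, 2 and 3, against 451.2, 463.2 and 460.8 in control libraries 1, 2 and 3. These overlapped, with a log2 change of 0.034 (95% confidence interval -0.035 to 0.10; limma adjusted p = 0.546). OAZ2, a second antizyme gene on chromosome 15, averaged 59.1 ± 1.39 in MAT1A and 59.9 ± 3.10 in control libraries (SD, n = 3 each), a log2 change of -0.018 (95% confidence interval -0.11 to 0.076; adjusted p = 0.840). Strand was not marked and the counting settings are not known. Reads in exon bases shared with unlisted genes could thus be added to members or lost from them. JSRP1 shares 236 bases with OAZ1 on the opposite strand, and antisense genes share 554 bases with OAZ2 and 344 with AZIN1. On the same strand, AC005258.1 shares 220 bases with OAZ1 and AL360181.3 shares 158 with PAOX.

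AZIN1, the antizyme inhibitor that is itself an inactive relative of ornithine decarboxylase, lay nearest to the threshold among them. It was 191.0, 175.3 and 179.7 in MAT1A libraries 1, 2 and 3, and 191.5, 193.6 and 196.1 in control libraries 1, 2 and 3. The groups did not overlap, but MAT1A 1 and control 1 were nearly equal. Its means were 182.0 ± 8.11 in MAT1A and 193.7 ± 2.32 in control libraries (SD, n = 3 each), a log2 change of -0.091 (95% confidence interval -0.16 to -0.016; limma adjusted p = 0.110). With the replicate number as a block AZIN1 was called (adjusted p = 0.0430), and likewise without MAT1A 1 (log2 change -0.13, adjusted p = 0.0475). With the block it was not called once the length and GC trend was also removed and medians set back (adjusted p = 0.0648), and its log2 change was -0.052 with that trend removed.

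Of the catabolic genes SMOX alone was called. It encodes spermine oxidase, which turns spermine back into spermidine and releases hydrogen peroxide, and lies on chromosome 20 (4120980 to 4187747, plus strand). It was 28.7, 29.7 and 26.3 in MAT1A libraries 1, 2 and 3, against 32.9, 33.4 and 32.8 in control libraries 1, 2 and 3. Every MAT1A library lay below the control libraries, which were within 1 unit of each other. SMOX fell by 14.6% in the mean, with means of 28.2 ± 1.70 in MAT1A and 33.0 ± 0.321 in control libraries (SD, n = 3 each), a log2 change of -0.22 ± 0.054 (SE; adjusted p = 0.0139 in limma) and the largest size among the 10. Leaving out control 3 ended the call (log2 change -0.23, adjusted p = 0.0507), as did the muscle covariate (log2 change -0.21, adjusted p = 0.245).

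SAT1 encodes spermidine/spermine N1-acetyltransferase, which marks polyamines for export or oxidation, and lies on the X chromosome (23783173 to 23786226, plus strand). It was 90.8, 96.1 and 94.7 in MAT1A libraries 1, 2 and 3, against 83.6, 87.9 and 90.0 in control libraries 1, 2 and 3. The groups did not overlap, though MAT1A 1 and control 3 were within 1 unit of each other. The log2 change was 0.11 (95% confidence interval 0.023 to 0.19; limma adjusted p = 0.0943), so SAT1 was not called. With the replicate number as a block it was (adjusted p = 0.0335), and likewise with the length and GC trend removed (log2 change 0.14, adjusted p = 0.00943), while with the muscle covariate the log2 change was 0.025. PAOX, a peroxisomal oxidase of acetylated polyamines on chromosome 10, rested on 19 to 38 reads per library. It was 1.02, 1.34 and 1.77 in MAT1A libraries 1, 2 and 3 and 1.72, 1.62 and 1.11 in control libraries 1, 2 and 3, which overlapped. Its log2 change was -0.066, with a 95% confidence interval from -0.38 to 0.25 (limma adjusted p = 0.822), and -0.11 with an interval from -0.61 to 0.39 at a pseudocount of 0.1 in place of 1.

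**Figure D2:**
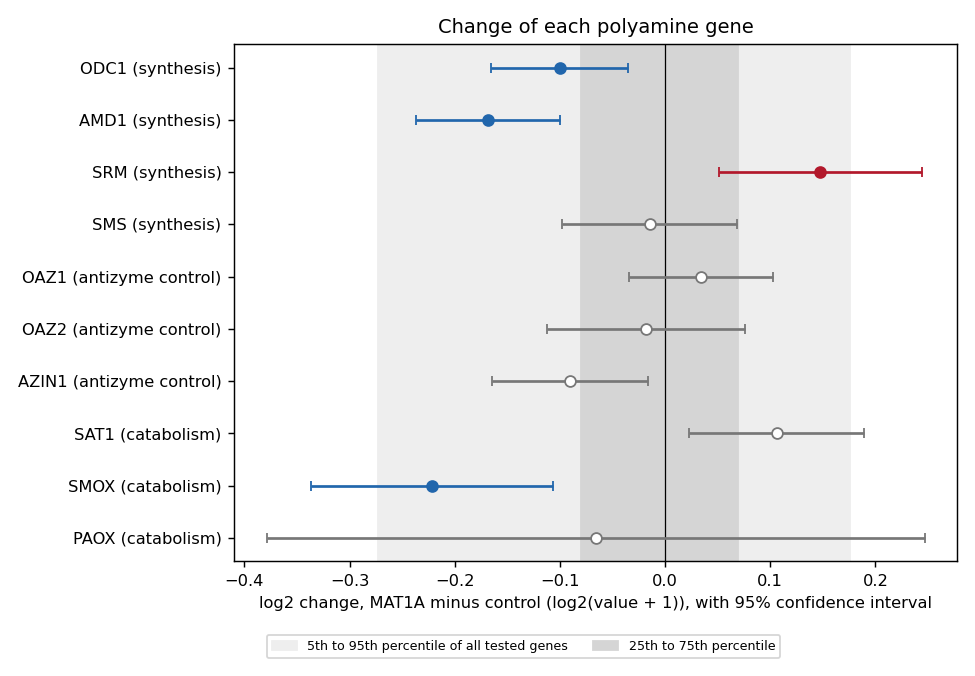
Log2 change of each polyamine gene (x axis, MAT1A minus control in log2(value + 1)) with its 95% confidence interval from limma; filled blue points were called lower, the filled red point higher and open grey points were not called. The shaded bands give the 5th to 95th and 25th to 75th percentiles of all tested genes (-0.27 to 0.18 and -0.080 to 0.070), and the 10 points lie within the wider band.

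Within a library, the log2 difference between genes does not depend on how the library was scaled, apart from the pseudocount. The log2 difference of ODC1 minus OAZ1 was 0.11 ± 0.041 in MAT1A and 0.25 ± 0.021 in control libraries (SD, n = 3 each). That of AMD1 minus SRM was 0.42 ± 0.14 in MAT1A and 0.73 ± 0.054 in control libraries, the genes whose enzymes make and use decarboxylated SAM. SRM minus SMS was 0.062 ± 0.050 in MAT1A against -0.10 ± 0.069 in control libraries, and SAT1 minus SMOX 1.70 ± 0.095 in MAT1A against 1.37 ± 0.055 in control libraries. For all 4 differences the MAT1A and control libraries did not overlap, with group differences of -0.13, -0.32, 0.16 and 0.33 (MAT1A minus control) in that order. Each had p = 0.1 in an exact two-sided permutation test (0.1 also after Benjamini-Hochberg adjustment over the 4), the smallest that 3 against 3 libraries allow. Members of these pairs are tested above with the same libraries. Each pair holds a member whose own values did not overlap between the groups, and members were chosen with earlier results of these data known. The lack of overlap in the differences is therefore no separate support, and its share over other gene pairs was not computed.

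Per kb of exon, which allows levels to be set beside each other, the first enzyme and the main antizyme were the most abundant. ODC1 was at 170.9 ± 4.13 per kb in MAT1A and 183 ± 4.71 per kb in control libraries, and OAZ1 at 137 ± 5.64 in MAT1A and 133 ± 1.84 in control libraries (SD, n = 3 each). SRM (87.1 ± 6.69 in MAT1A, 78.4 ± 2.51 in control) and SMS (73.2 ± 4.41 in MAT1A, 73.9 ± 1.18 in control) followed, with SRM above SMS in each of the 6 libraries. AMD1 and SAT1 were within their spread in control libraries (35.3 ± 1.02 and 34.9 ± 1.32 per kb), while in MAT1A libraries SAT1 (37.6 ± 1.09) stood above AMD1 (31.4 ± 0.693). AZIN1 came next at 28.3 ± 1.26 per kb in MAT1A and 30.2 ± 0.362 in control libraries. SMOX (9.58 ± 0.578 in MAT1A, 11.2 ± 0.109 in control) and OAZ2 (7.70 ± 0.181 in MAT1A, 7.81 ± 0.404 in control) stood lower, and PAOX lowest at 0.605 ± 0.165 in MAT1A and 0.651 ± 0.144 in control libraries. The length is that of all annotated exons of a gene together, which lowers genes with long exons that few transcripts hold.

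**Figure D3:**
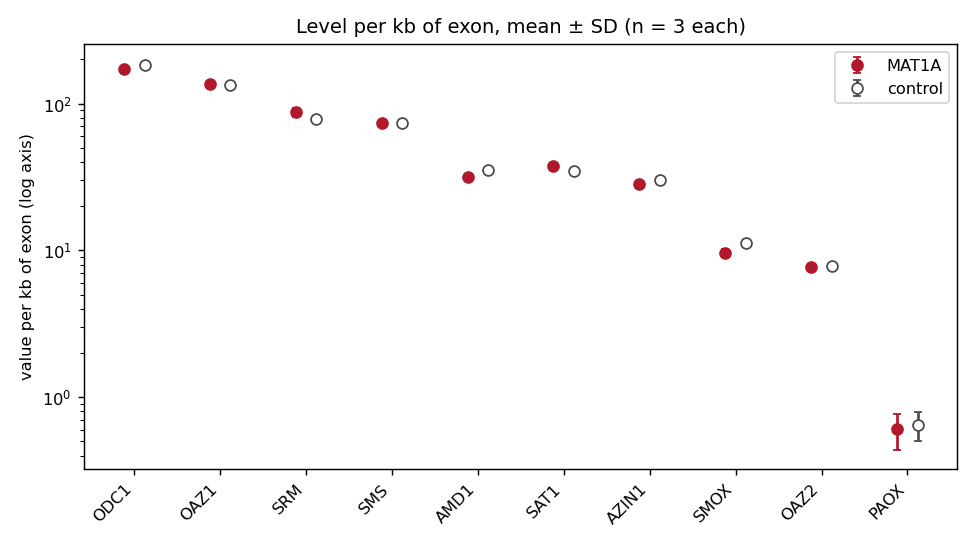
Value per kb of exon of the 10 polyamine genes (log y axis), ordered by the control mean, as mean ± SD over 3 MAT1A (filled) and 3 control (open) libraries. The genes span from 183 per kb for ODC1 to 0.651 per kb for PAOX in control libraries.

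Summed by role, which is a description with no test, the values of the synthesis genes stood at 1033, 1083 and 1039 in MAT1A libraries 1, 2 and 3 and at 1095, 1100 and 1108 in control libraries 1, 2 and 3. Catabolic genes summed to 120.5, 127.0 and 122.8 in MAT1A libraries and 118.2, 122.9 and 124.0 in control libraries, and antizyme control genes to 714.9, 725.9 and 691.3 in MAT1A libraries against 700.7, 720.3 and 715.1 in control libraries. Only the synthesis sums did not overlap between groups, and ODC1 is the largest term of each. Among 9348 genes with a mean of at least 10, the genes whose centred log2 values over the 6 libraries were closest to AMD1 were MRC2, ZNF654 and FLRT2 (root mean square difference 0.014, 0.016 and 0.017). For ODC1 these were XBP1, RPE and TGFB1 (0.0073, 0.0096 and 0.012). For SRM they were CROCC, LRP3 and ATP5F1D (0.013, 0.020 and 0.021), and for SMOX C11orf68, EVA1A and ZNF503 (0.014, 0.017 and 0.025). Of all these genes only FLRT2, ATP5F1D, C11orf68 and EVA1A were called (limma adjusted p = 0.0164, 0.031, 0.00253 and 0.00589), and none of those closest to ODC1. Closeness over 6 libraries describes likeness alone, and shared control was not tested.

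Around the pathway, 39 of the 44 genes in 6 lists were listed and tested. Of these 5 rose, 2 fell and 32 were not called (median log2 change 0.048, against 0.0040 over all genes tested). Over all genes tested 4.01% were called higher and 7.4% lower (11.4% together), to be set beside this count and that of each list. The lists were chosen with earlier results of these data known, so the counts are a description. In the supply of ornithine and arginine, ASS1 (argininosuccinate synthase, which makes an arginine precursor) was the 1 gene of 11 that was called. It was 43.1, 49.6 and 43.4 in MAT1A libraries 1, 2 and 3 and 32.1, 32.6 and 33.3 in control libraries 1, 2 and 3, a log2 change of 0.46 ± 0.055 (SE; adjusted p = 2.8e-05 in limma). The mitochondrial arginase gene ARG2, which makes ornithine, and OAT, the ornithine aminotransferase gene, were not called (log2 change -0.14 and 0.062; adjusted p = 0.312 and 0.435). ARG2 shares 904 exon bases with VTI1B on the opposite strand, and ARG1 was not listed.

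Of the 9 genes of SAM supply and methionine salvage, MAT2A (log2 change -0.53, limma adjusted p = 2.5e-08; 558 exon bases shared with GGCX) fell and AHCY (0.12, adjusted p = 0.0338), which clears the product of SAM methylation, rose. AHCY was not called without MAT1A 1, MAT1A 2, control 1 or control 3 (adjusted p = 0.0954, 0.0689, 0.117 and 0.182), nor with the muscle covariate (log2 change 0.13, adjusted p = 0.263). MTAP, which recovers the methylthioadenosine that the spermidine and spermine synthases release, was 110.6 ± 2.69 in MAT1A and 106.6 ± 4.23 in control libraries (SD, n = 3 each; log2 change 0.054, limma adjusted p = 0.398). MTAP was called with the length and GC trend removed (0.12, adjusted p = 0.0177) and with medians then set back (0.097, adjusted p = 0.0460). MAT2B was not called (log2 change -0.085, and -0.0075 with that trend removed). Spermidine is also the donor for hypusine, the modified residue of the translation factor EIF5A, and none of the 5 genes of that pathway was called. EIF5A, which shares 241 exon bases with GPS2 on the opposite strand, had a log2 change of 0.087 (limma adjusted p = 0.131). DOHH, the hydroxylase of the last step, had 0.18 (adjusted p = 0.0680). The values of both overlapped between the groups. Both were called with the replicate number as a block (limma adjusted p = 0.0104 for EIF5A and 0.0124 for DOHH). They were also called once the length and GC trend was removed (0.0295 for EIF5A and 0.0107 for DOHH). With medians then set back DOHH stayed called (0.0221) and EIF5A did not (0.0890). The median log2 change of the 5 genes was -0.0165.

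Of 8 tested transport genes, SLC3A2 and GPC1 rose, SLC22A3 fell and 5 were not called. SLC3A2 encodes a heavy chain of amino acid transporters that has also been tied to polyamine export. It was 763.6, 810.7 and 746.0 in MAT1A libraries 1, 2 and 3 and 660.0, 676.9 and 664.0 in control libraries 1, 2 and 3 (log2 change 0.21 ± 0.033, SE; adjusted p = 0.000353 in limma). The glypican gene GPC1, whose heparan sulfate can take up polyamines, had a log2 change of 0.18 (limma adjusted p = 0.00945; 0.0510 without control 3). SLC22A3, an organic cation transporter gene, averaged 4.28 ± 0.308 in MAT1A and 6.08 ± 0.482 in control libraries (SD, n = 3 each; log2 change -0.42, adjusted p = 0.00929), and was not called without control 1 (adjusted p = 0.0523). With the muscle covariate neither was called: the log2 change of GPC1 was of the same size with a wider error (0.19, adjusted p = 0.173), while that of SLC22A3 was smaller (-0.28, adjusted p = 0.365). ATP13A3, a pump that takes up polyamines, was not called (log2 change -0.13, adjusted p = 0.0659; 0.00357 with the replicate number as a block). The log2 change of ATP13A3 was -0.057 with the length and GC trend removed (adjusted p = 0.186) and -0.065 without MAT1A 2 (0.174). Its lysosomal relative ATP13A2 was not called (0.048).

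Among 5 regulators of ODC1, NQO1 alone was called, a quinone reductase gene whose protein can shield ornithine decarboxylase from degradation. It was 239.8, 242.7 and 257.8 in MAT1A libraries 1, 2 and 3 and 193.9, 199.6 and 202.0 in control libraries 1, 2 and 3 (log2 change 0.31 ± 0.034, SE; adjusted p = 9.6e-06 in limma). MYC, which can activate ODC1 through E-boxes, was 282.8, 291.6 and 271.6 in MAT1A and 293.6, 305.3 and 306.6 in control libraries. These did not overlap, and MYC was not called (log2 change -0.098, limma adjusted p = 0.0674; 0.0156 with the replicate number as a block, 0.0343 with library size without MAT1A reads). Its partner gene MAX had a log2 change of 0.012, and SAT2, a relative of SAT1, -0.040, neither called. OAZ3, AZIN2, ATP13A4 and SLC47A1 were not listed.

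**Figure D4:**
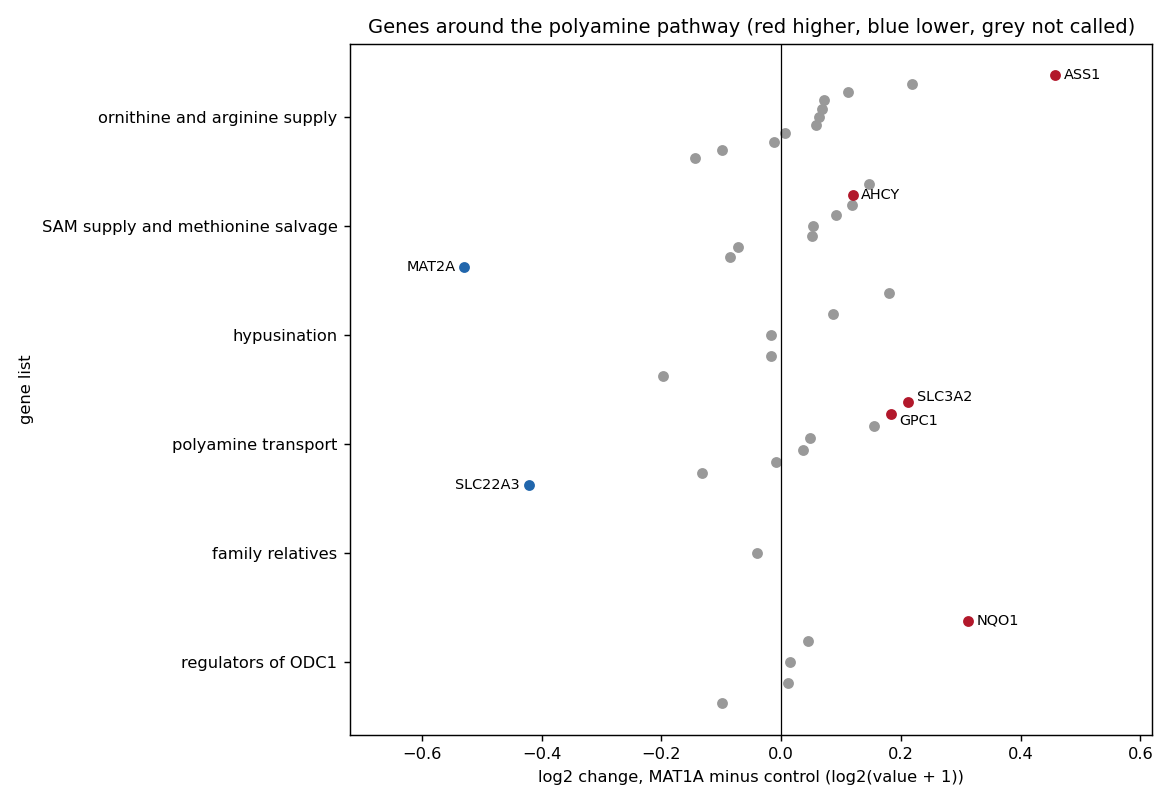
Log2 change of 39 tested genes around the polyamine pathway (x axis, MAT1A minus control in log2(value + 1)), by list (y axis, spread within a list by order of the value); red points were called higher, blue lower and grey not called. MAT2A (-0.53) and SLC22A3 (-0.42) lie farthest left and ASS1 (0.46) farthest right.

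The calls of AMD1 and SMOX held in more of the fits than those of the other polyamine genes. Of 18 fits drawn, AMD1 was called in 17, SMOX in 16, ODC1 in 12, SRM in 11, SAT1 in 4 and AZIN1 in 2. Each of these 6 genes kept its sign in all 18, with the log2 change of SAT1 smallest with the muscle covariate (0.025).

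**Figure D5:**
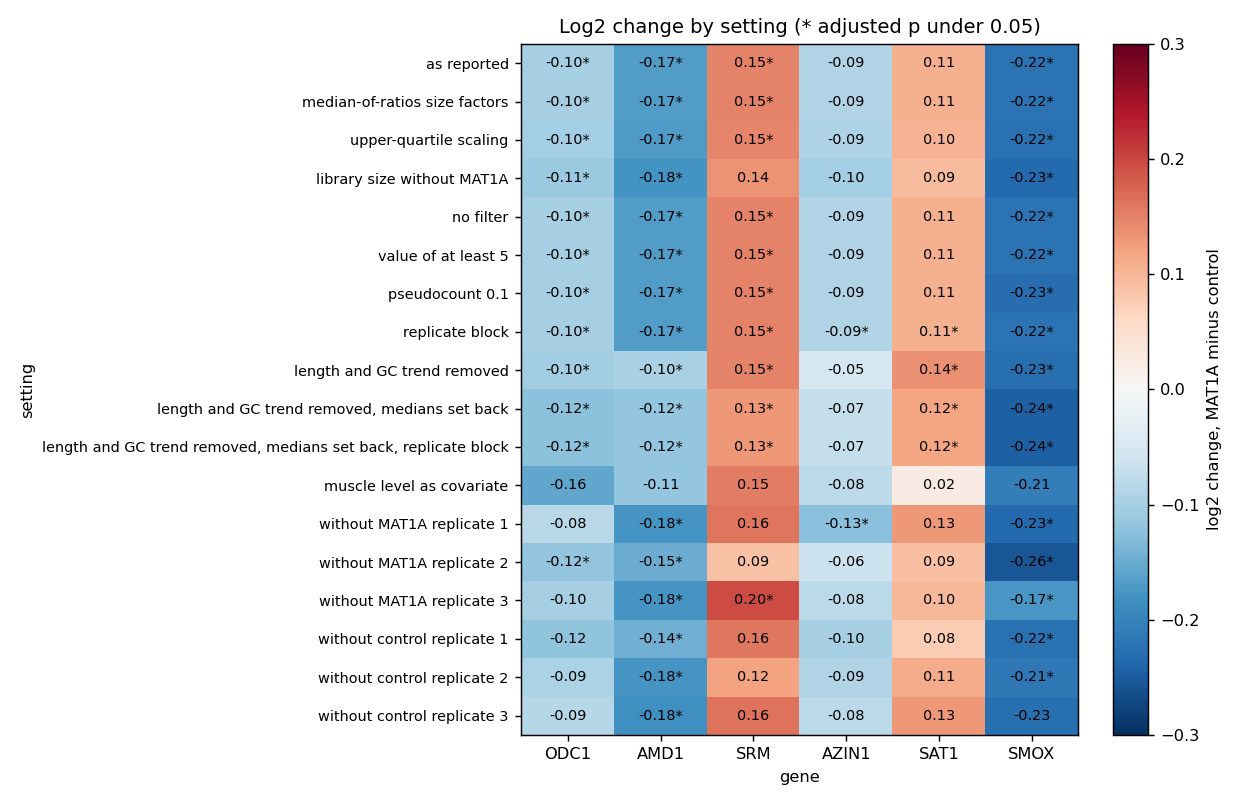
Log2 change, MAT1A minus control, of 6 polyamine genes (columns) in the reported fit and 17 alternatives (rows), with colour and number giving the value and a star an adjusted p under 0.05 in limma. AMD1 is starred in each fit but the one with the muscle covariate, while SRM and ODC1 lose the star in most fits that leave out a library.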

How the data were processed

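RNA of 6 samples (3 MAT1A, 3 control) was sequenced from TruSeq version 2.0 libraries, which do not mark strand, with 36-cycle reads on a NextSeq500, per the labels' protocols. The authors deposited a table of 13271 genes holding a signal, reads on a CPM-like scale; STAR 2.6.0c, featureCounts and edgeR are the tools listed in the submitters' processing notes (build hg38), and the sources used here give no other settings. In each column 100% of values were whole multiples of 1 step to within 0.001 reads, so totals of 17.4 to 21.6 M reads and a floor of 3 reads (0.140 to 0.172) follow, covering counting error only. Pairs of libraries of 1 group differed by more than sampling noise (chi-square per degree of freedom 1.86 to 4.39). The design planned limma for scaled values: limma 3.58.1 in R 4.3.3, with an intensity trend, on log2(value + 1), for 12866 genes at 1 or more in at least 3 libraries, Benjamini-Hochberg adjusted over all of them; fold changes of low genes are understated. The fit was tested on simulated data with independent libraries and changes larger than those of the members. That test therefore does not cover changes as small as theirs. Samples with the same replicate number deviated together across genes (correlations 0.246, 0.178 and 0.191), so the numbers were taken to pair them. This pairing comes from the data, and the reported fit has no block. In both groups the muscle marker level fell and the depth rose from replicate 1 to replicate 3. Whether that shared order gives the correlations was not tested. Positions and exon lengths are from GENCODE release 29 (GRCh38, as hg38), which matched 13211 symbols. Unstranded counts cannot separate overlapping genes. Members, lists and named genes were chosen with earlier results of these data known; the text names all 10 members, the called genes of 6 related lists, up to 2 uncalled ones per list (picked for their role after their values were seen) and the 3 closest profiles of each called member. Figures were drawn with matplotlib 3.10.9.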

Additional observations from a re-analysis of the deposited data

How the results depend on the processing

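The planned edgeR, DESeq2 and limma-voom fits were not run. All values are whole multiples of 1 read, but the test of recovered reads used here takes a library's lowest value as 1 read, which held in 3 of 6. Of 179 member values under 18 alternatives, 147 kept their direction and their side of the threshold, 19 lost the call, 6 gained it and 7 turned sign, all 7 in genes not called. With 1 library left out the log2 change ran from -0.063 to 0.015 for SMS, -0.040 to 0.024 for OAZ2, -0.18 to 0.044 for PAOX and -0.014 to 0.032 for MAX. Signs also turned for SMS with the length and GC trend removed (0.0014), for PAOX and SAT2 with the muscle covariate (0.0013 and 0.062), and for MAX with that trend removed and medians set back (-0.014 with and without the block). The cause was not tested. PAOX was not tested with a minimum of 5.

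Of all genes, 1468 were called, 35.1% of them higher. The count was 663 at adjusted p under 0.01, 405 with the muscle covariate, 2310 with the replicate number as a block, 2218 with the length and GC trend removed (58.0% higher), and 2560 with that trend removed, medians set back and the block; it ran from 749 to 1656 with 1 library left out, lowest without control 3 and 782 without control 1. Members called, 4 as reported, were 1 at adjusted p under 0.01, 0 with the muscle covariate, 6 with the replicate block, and between 1 and 3 with 1 library left out. The block changed no other member's call. No log2 difference between members turned sign when a library was left out or with a pseudocount of 0.1. A low count such as that of PAOX limits what can be seen.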
